A study of Mus musculus with 2 samples.

Results

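Coding m6A sites in long internal exons were taken from 17 lists of positions that 10 tools made from ONT direct RNA sequencing (DRS). A member was any unique position and strand that lay in the coding sequence of an exon that was neither first nor last and measured 400 nt or more. The exon was read from the protein-coding transcript with the longest coding sequence at that position. Of 160430 positions in all lists, 7891 (4.92%) met this rule, and they lay in 1370 exons of 1219 genes. Poly(A) RNA of mouse 129 embryonic stem cells was sequenced, wild-type (WT) in 1 library and Mettl3 knockout (KO) in the other. The KO cells lack exons 5 to 7 of Mettl3 on both alleles and carry, in their place, drug resistance genes for puromycin and hygromycin, introduced by genome editing. The KO cells were grown from selected colonies, and the number of clones behind the library is not given in the sources used here. A WT list and a KO list came from each of 7 tools, namely ELIGOS, Epinano, m6Anet, MINES, Nanom6A, Tombo and xPore. The 3 others, Nanocompore, DiffErr and DRUMMER, set WT against KO and gave a single comparison list each. xPore is also run in compare-mode: it needs both libraries and models them jointly, so its WT and KO lists are not separate calls like those of the other 6 tools. The WT lists together held 6275 members, the KO lists 4428 and the comparison lists 194.

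m6A is placed on mRNA by the methyltransferase Mettl3 and its partner Mettl14 within the motif RRACH, where R is A or G and H is A, C or T. In mammalian mRNA it is best known around stop codons, and long internal exons are the other place where it is commonly found. Close to splice junctions, m6A is usually scarce, and exon junction complexes are known to keep the methyltransferase away from there. Coding sites in long internal exons lie outside the last exon, which usually holds the stop codon, and carry 2 measurable distances, to the upstream and to the downstream exon edge.

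The sequences of the members listed by the most tools are shown because they place the motif inside a coding exon. Each is given 5′ to 3′ on the mRNA strand, read from the RefSeq copy of GRCm38, with the RRACH motif in capitals and the listed A in its middle. The first 6 were listed by the most tools in WT or the comparison and in no KO list.
Ythdf1, chr2:180910927-180910947, minus strand: tggtctcaGGACAagtggaag
Klf4, chr4:55530483-55530503, minus strand: ccggagttGGACCcagtatac
Asnsd1, chr1:53347652-53347672, minus strand: tacaagagAGACActtgaggt
Fbxo5, chr10:5801868-5801888, minus strand: agcggcatGGACTtagtaaag
Nid2, chr14:19768598-19768618, plus strand: gcttctttGGACCctcaaacc
Cdca5, chr19:6090408-6090428, plus strand: agaacgaaGGACTtggttcca

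A further 5 members were among the 6 listed in both libraries by the most tools, and they show what a position looks like when the tools also call it in cells without Mettl3.
Senp3, chr11:69680808-69680828, minus strand: tatacaggGGACCgggtcttg
Phf23, chr11:69998695-69998715, plus strand: gaaagttgGGACCaggaggtg
Fn1, chr1:71597376-71597396, minus strand: cctctacaGGACAggaagctc
Fbxl5, chr5:43758666-43758686, minus strand: gcactcttGGACTgaacctgt
Dhx15, chr5:52184644-52184664, minus strand: gacacacaGGACAcacatcac

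The labels were checked at the targeted gene and at marker genes. Mettl3 held 1 member, a GGACC at 52299910 on the minus strand of chromosome 14, in exon 3 of 11 (405 nt), 195 nt from the upstream edge and 209 nt from the downstream edge. m6Anet listed it in WT, and it was in no KO list. Over all exon classes, the replaced exons 5 to 7 of Mettl3 held 2 WT positions and 0 KO positions, a count too small to check the label firmly. Exons 1 to 7 together held 9 and 0, and exons 8 onwards held 4 WT and 5 KO positions. Of 10 embryonic stem cell markers, 9 held a listed position in WT and 8 in KO. The count was the same in both libraries for Pou5f1 (25), Zfp42 (18) and Dppa5a (6). It was lower in KO for Nanog (37 in WT and 35 in KO), Sox2 (26 and 22) and Esrrb (50 and 38). Tdgf1 (34 and 20), Klf4 (32 and 15) and Sall4 (1 and 0) were lower in KO too. Lin28a held none in either library. Of 10 markers of differentiated lineages, 1 held positions in WT (Sox17, 12 positions) and 1 in KO (Col1a1, 3 positions). The lists give no score, methylation rate or coverage, so the depth behind a site is unknown. With 1 library per condition no test across conditions was possible, and every interval below is a 95% interval that covers counting error and leaves out the spread between cultures.

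Of the 3 classes of coding sequence compared (long internal, short internal and last exons), long internal exons had the lowest share of WT sites listed again in KO. For ELIGOS they could not be told from last exons. On the transcripts with a long internal exon the same held for every tool except Tombo, so the ranking is firm only against short internal exons. Among the WT members of ELIGOS, 17 of 354 (4.80%, interval 3.02 to 7.56%) were also in its KO list, against 24.8% (22.2 to 27.7%) of its WT sites in internal exons under 400 nt. For xPore it was 34 of 385 (8.83%, 6.39 to 12.1%) against 66.2% (62.7 to 69.5%). The difference, long minus short, was -57.3 percentage points for xPore (-61.5 to -52.6), the largest of the 7 tools and the one that rests on a joint model of both libraries. Among the 6 tools that read each library alone it was largest for Nanom6A, at -29.0 (-32.7 to -25.2). Epinano listed 9.32% of its 3240 WT members again, against 20.3% in short internal exons.

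For the other 4 tools the levels were higher and the direction was the same. m6Anet listed 21.9% (19.4 to 24.5%) of its 997 WT members again in KO, against 48.4% in short internal exons. MINES, which takes values of Tombo as input, listed 27.3% of 895 against 52.4%. For Nanom6A the shares were 43.1% of 689 and 72.1%, and for Tombo 47.1% of 4055 and 67.9%. All 7 intervals of the difference lay below 0, from -11.0 percentage points for Epinano (-12.3 to -9.71) to those of Nanom6A and xPore. Last exons lay between the 2 internal classes. The difference of long internal from last exons ran from -19.4 percentage points for Nanom6A (-23.4 to -15.4) to -2.75 for Epinano (-4.03 to -1.42), and for ELIGOS its interval included 0 (-3.01, -5.63 to 0.162).

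The levels depended on which KO list was searched. Matched to the KO list of any tool in place of the same tool, the share of WT members listed again was 60.7% for ELIGOS, 55.3% for xPore, 35.3% for Epinano, 54.5% for m6Anet, 58.2% for MINES, 69.5% for Nanom6A and 53.0% for Tombo. In short internal exons it was 70.6%, 83.6%, 44.6%, 67.4%, 75.5%, 83.3% and 72.1% in the same order, so long internal exons stayed lower for each tool. Last exons lay between them except for Epinano, at 45.1%.

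**Figure D1:**
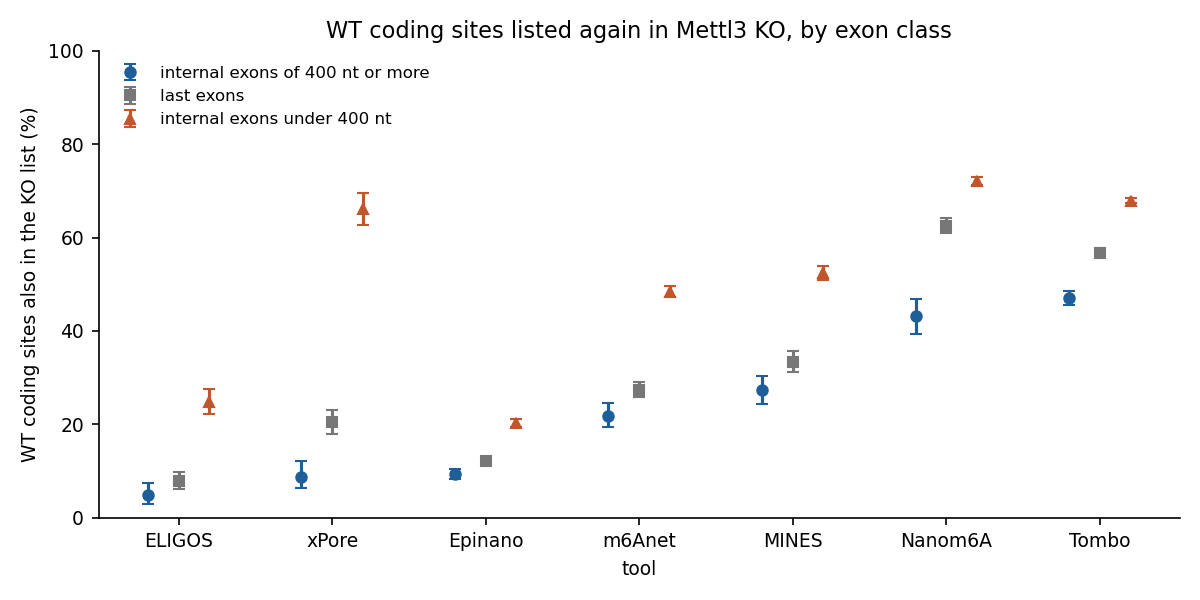
Share of WT coding sites that the same tool also listed in Mettl3 KO (y axis, percent) for the 7 tools with both lists (x axis), in internal exons of 400 nt or more, last exons and internal exons under 400 nt. Points are shares and bars are 95% Wilson intervals. For each tool the long internal exons are lowest, from 4.80% for ELIGOS to 47.1% for Tombo, and the short internal exons highest. For ELIGOS the long internal and last exons could not be told apart.

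The number of members also fell in KO, and more so in long than in short internal exons. ELIGOS had 53 members in KO and 354 in WT, a KO to WT ratio of 0.150 (interval 0.110 to 0.2003). Epinano had 676 and 3240, a ratio of 0.209 (0.192 to 0.227), and xPore 100 and 385, a ratio of 0.260 (0.206 to 0.324). In short internal exons these ratios were 0.578, 0.448 and 0.905. The ratio in long internal exons was 0.479 for m6Anet, 0.537 for MINES, 0.739 for Nanom6A and 0.784 for Tombo, and in short internal exons 0.844, 0.907, 0.887 and 1.01. In last exons the ratio was 0.2002 for ELIGOS, 0.232 for Epinano and 0.411 for xPore. It was 0.473 for m6Anet, 0.566 for MINES, 0.833 for Nanom6A and 0.859 for Tombo there. The intervals of long internal and last exons were apart for xPore and Tombo alone. For the other tools they overlapped, so the fall in long internal exons could not be told from that in last exons. These ratios are not corrected for sequencing depth, although the study describes libraries of nearly equal read number.

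Distance to the transcript end and motif were measured beside this result, because native RNA is read from its 3′ end and the tools treat motifs differently. Within each of 4 classes of distance to the 3′ end (under 1000, 1000 to 2000, 2000 to 4000 and 4000 or more nt, each without its upper limit) the share listed again was lower in long than in short internal exons for each of the 7 tools. The interval of the difference lay below 0 in all 28 pairs of tool and distance. At 1000 to 2000 nt, for example, xPore listed 8.88% again in long and 65.6% in short internal exons. Within the 4 motifs that MINES can call (AGACT and the 3 that begin with GGAC) the differences were -48.4 percentage points for xPore, -37.3 for Nanom6A, -26.7 for Tombo, -25.2 for MINES, -24.8 for m6Anet, -17.0 for ELIGOS and -9.76 for Epinano. In transcripts that held a long internal exon, a setting chosen after seeing the data, the short internal exons were listed again at 60.9% by xPore, 25.7% by ELIGOS and 17.4% by Epinano, all above the long ones. There the last exons of the same transcripts could not be told from the long internal exons for 6 of the 7 tools, whose intervals of the difference included 0; the exception was Tombo, at -5.29 percentage points (-8.38 to -2.19).

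Over coding sequence as a whole, 25.9% of RRACH positions were in a WT list, 22.5% in a KO list and 0.437% in a comparison list. The background here was the 273738 coding RRACH positions of the transcripts that held a listed position, of which 33485 (12.2%) lay in long internal exons. Of these 33485, 18.7% were in a WT list, 13.2% in a KO list and 0.579% in a comparison list. Both the WT and the KO union thus fell below the coding background in long internal exons, and the comparison lists lay above it. Of all coding positions in the lists, long internal exons held 8.84% in WT (8.64 to 9.05%), 7.17% in KO (6.97 to 7.38%) and 16.2% in the comparison (14.2 to 18.4%). By tool, the WT share ran from 3.75% for Nanom6A to 17.1% for xPore (15.6 to 18.7%), and DRUMMER held 18.7% (15.4 to 22.5%).

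Set against short internal exons, the comparison lists were dense in long ones. They held 5.79 sites per 1000 RRACH positions in long and 1.55 in short internal exons, a ratio of 3.73 (interval 3.10 to 4.50). The ratio was 6.23 for DRUMMER (4.52 to 8.59), 5.08 for DiffErr (3.87 to 6.66) and 3.37 for Nanocompore (2.68 to 4.22). Among WT lists it was 2.88 for xPore, 2.03 for ELIGOS, 1.85 for Epinano and 1.17 for MINES, and below 1 for Tombo (0.821), m6Anet (0.798) and Nanom6A (0.288). Each KO list had a lower ratio than the WT list of the same tool: 0.826 for xPore, 0.525 for ELIGOS, 0.859 for Epinano, 0.691 for MINES, 0.635 for Tombo, 0.454 for m6Anet and 0.240 for Nanom6A. The union of WT lists had 187 sites per 1000 in long and 255 in short internal exons, a ratio of 0.736 (0.717 to 0.756). Coding sequence of last exons was denser than that of long internal exons, at 14.5 per 1000 in the comparison lists (long to last ratio 0.398, 0.337 to 0.469), 331 in WT (0.566, 0.549 to 0.583) and 267 in KO (0.496, 0.479 to 0.514). On the transcripts with a long internal exon this ratio was 1.21 (0.843 to 1.78) in the comparison lists, 0.687 in WT and 0.603 in KO.

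The direction for the WT union depended on which short exons served for comparison. Taken over the transcripts that held a long internal exon, an alternative chosen after seeing the data, the WT ratio was 1.28 (1.23 to 1.32) and the KO ratio 0.930 (0.895 to 0.967). On the same transcripts the comparison lists held 13 sites in 45865 short internal positions and 194 in 33485 long ones, a ratio of 20.4 (11.7 to 39.1). All 7 WT ratios lay above 1 there, from 1.18 for Nanom6A (1.06 to 1.30) to 7.64 for xPore (5.90 to 10.02). Long internal positions lay farther from the transcript 3′ end, at a median of 3488 nt against 2345 nt for short internal positions in the background. Members in the WT lists lay at a median of 2407 nt, those in KO lists at 2307 nt and those in comparison lists at 1594 nt. Within classes of distance to the 3′ end the comparison ratio stayed above 1, at 3.16 under 1000 nt, 8.94 at 1000 to 2000 nt, 7.79 at 2000 to 4000 nt and 5.70 at 4000 nt or more. The lists give no coverage per site, and its part in these densities was not tested.

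**Figure D2:**
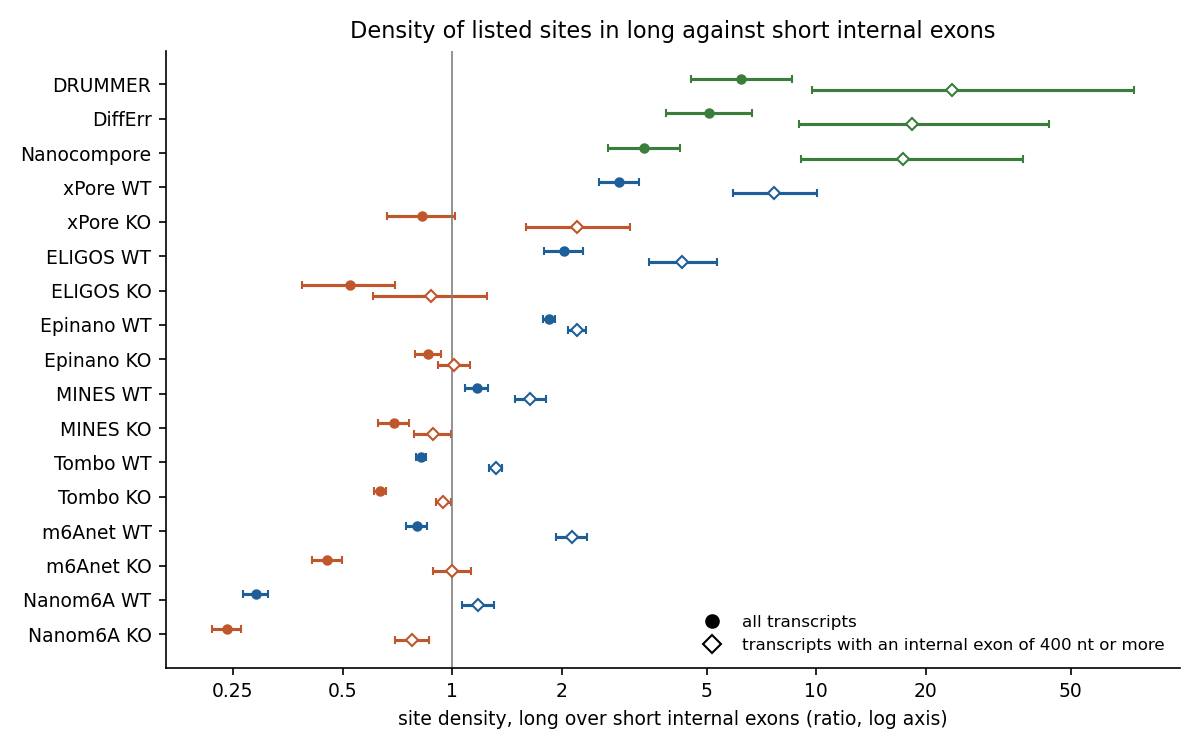
Density of listed coding sites in long internal exons over that in short internal exons (x axis, ratio, log axis) for the 17 lists (y axis). Filled circles take all transcripts and open diamonds the transcripts with an internal exon of 400 nt or more; WT lists are blue, KO lists orange and comparison lists green, bars are exact 95% intervals for counting error, and the grey line is a ratio of 1. The 3 comparison lists lie highest, from 3.37 to 6.23 over all transcripts, and each KO list lies to the left of its WT list.

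Exon length was graded further to see where the density changed, again with the upper limit of each class left out. In the comparison lists the density was 1.11 per 1000 RRACH positions in internal exons under 100 nt, 1.30 at 100 to 200 nt and 2.92 at 200 to 400 nt. It was 7.15 at 400 to 600 nt (interval 5.31 to 9.43), 8.51 at 600 to 1000 nt (6.67 to 10.7), 5.32 at 1000 to 2000 nt and 2.59 at 2000 nt or more. WT density was 264 per 1000 under 100 nt, 234 at 200 to 400 nt, 264 at 600 to 1000 nt and 95.4 at 2000 nt or more. KO density went down through each class of length, from 245 per 1000 under 100 nt to 168 at 600 to 1000 nt and 73.4 at 2000 nt or more. Just outside the limit of the rule, at 350 to 400 nt, the comparison density was 4.70 (2.35 to 8.42), and just inside it, at 400 to 450 nt, 3.76 (1.51 to 7.75), and these intervals overlapped.

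**Figure D3:**
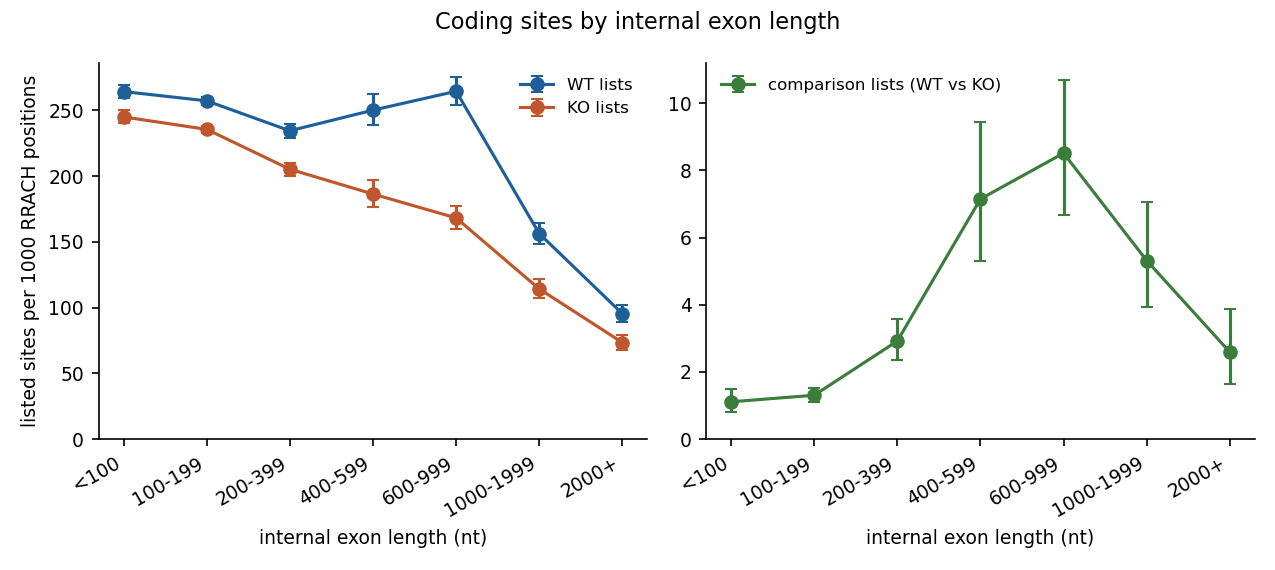
Listed coding sites per 1000 RRACH positions (y axis) by internal exon length (x axis, nt), for the union of WT lists and of KO lists (left) and of the 3 comparison lists (right, own scale). Points are densities and bars are 95% Poisson intervals. KO density goes down with length, while WT density lies between 234 and 264 per 1000 up to 1000 nt, and comparison density is highest at 600 to 1000 nt, at 8.51.

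Members were scarce next to the exon edges in the comparison lists and in the WT lists of xPore, ELIGOS, Epinano and m6Anet. They were scarce there in the KO list of xPore as well. In the comparison lists 5 of 194 members (2.58%, interval 1.11 to 5.89%) lay within 50 nt of the nearest edge, against 10.2% of the RRACH positions in the same exon class. Among WT members the share was lowest for xPore, at 2.34% (1.23 to 4.38%), followed by ELIGOS at 4.52% (2.80 to 7.22%). Epinano had 6.39% (5.60 to 7.28%) and m6Anet 7.32% (5.86 to 9.11%). The share was 8.27% for MINES (6.64 to 10.26%), 9.72% for Nanom6A (7.73 to 12.2%) and 9.91% for Tombo (9.03 to 10.9%), with intervals that included the background share. The background was also weighted to the motif mix and the distance to the 3′ end of each list. Weighted in this way, 12.3% of background positions lay within 50 nt for the comparison lists. For the WT lists it was 11.7% for xPore, 11.6% for ELIGOS, 11.1% for Epinano, 11.7% for m6Anet, 10.9% for MINES, 12.03% for Nanom6A and 11.4% for Tombo. Of these, the interval of Nanom6A alone included its weighted background. For all 7 tools the KO share was above the WT share. In KO it was 17.1% for Nanom6A (14.1 to 20.6%), 14.6% for m6Anet (11.8 to 18.1%), 12.5% for MINES and 12.3% for Tombo. It was lower for ELIGOS, at 9.43% (4.10 to 20.3%), Epinano, at 8.28% (6.43 to 10.6%), and xPore, at 4 of 100 (1.57 to 9.84%), and for these 3 tools and MINES the KO and WT intervals overlapped. Weighted in the same way, the background of the KO lists was 11.2% for Epinano and 11.6% for xPore, above both intervals. Sites next to the edges were thus scarce in these KO lists too. The interval of Nanom6A lay above its weighted 12.4%, and those of Tombo, MINES, m6Anet and ELIGOS included their weighted background.

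Per 1000 RRACH positions, the comparison lists held 1.46 sites within 50 nt of an edge (0.474 to 3.41), 7.77 at 50 to 100 nt (5.12 to 11.3), 8.14 at 100 to 200 nt and 7.73 at 200 to 400 nt. At 400 nt or more from both edges the density was 3.48 (2.46 to 4.78). In WT it went from 177 within 50 nt to 211, 238 and 232, and then to 115 beyond 400 nt. In KO it stayed between 145 and 163 up to 400 nt and was 87.4 beyond. The comparison lists held 2 sites within 50 nt of the upstream edge and 3 within 50 nt of the downstream edge. At the downstream edge this was 1.69 per 1000 (0.348 to 4.93), against 8.97 (5.13 to 14.6) at 50 to 100 nt. At the upstream edge it was 1.21 (0.147 to 4.38) against 6.50 (3.24 to 11.6), with overlapping intervals. Among positions under 2000 nt from the transcript 3′ end the comparison density was 3.89 within 50 nt (1.06 to 9.95) and 21.7 at 100 to 200 nt (15.9 to 28.9), and the WT density 259 and 360. At 2000 nt or more the comparison density was 0.417 within 50 nt (0.0106 to 2.32), from 1 site, and 2.25 at 100 to 200 nt (1.12 to 4.03). These intervals overlapped, and the WT density was 143 and 185.

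**Figure D4:**
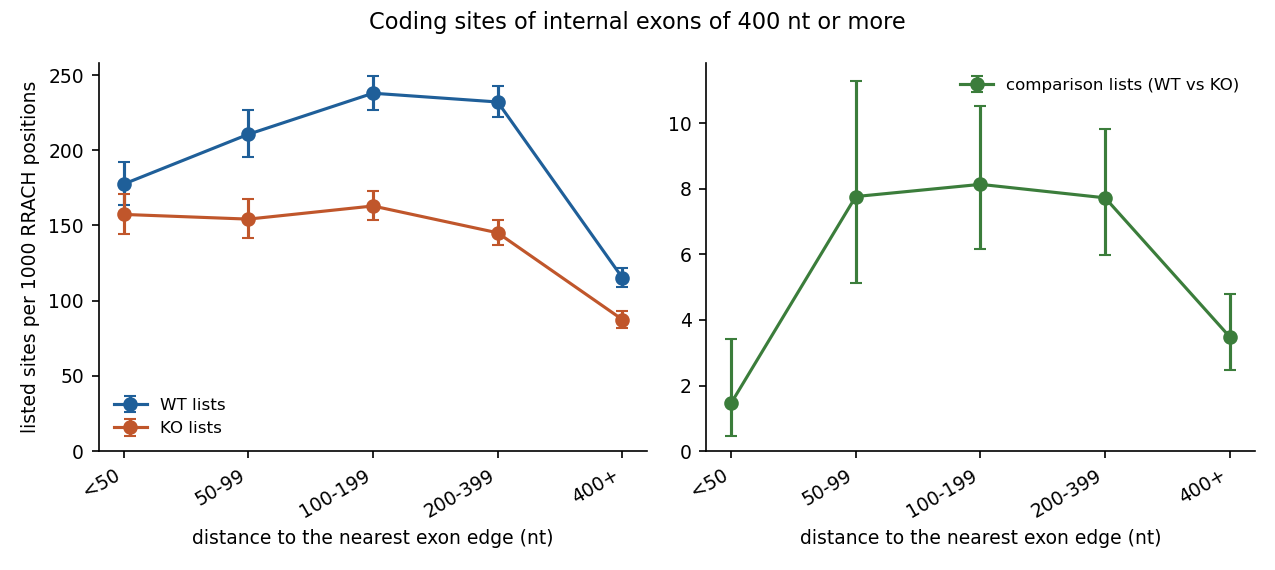
Listed coding sites per 1000 RRACH positions of internal exons of 400 nt or more (y axis) by distance to the nearest exon edge (x axis, nt), for the unions of WT and KO lists (left) and of comparison lists (right, own scale). Points are densities and bars are 95% Poisson intervals. The comparison lists are lowest within 50 nt, at 1.46 per 1000, and WT and KO lie closest together there, at 177 and 157.

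Members listed again in KO lay within 50 nt of an edge more often for each of the 7 tools, with intervals that were apart for 4 of them. The share was 5.65% (4.23 to 7.50%) of the m6Anet WT members that were not in its KO list and 13.3% (9.42 to 18.5%) of those in both. For Tombo these shares were 7.55% (6.50 to 8.74%) and 12.6% (11.2 to 14.1%), and for Nanom6A 5.87% and 14.8%, and for MINES 6.61% (4.94 to 8.78%) and 12.7% (9.10 to 17.5%). The intervals overlapped for Epinano, at 6.16% (5.35 to 7.09%) and 8.61% (5.94 to 12.3%), for ELIGOS, at 4.15% (2.49 to 6.85%) and 11.8% (3.29 to 34.3%), and for xPore, at 1.99% (0.969 to 4.06%) and 5.88% (1.63 to 19.1%). Taken the other way, Nanom6A listed 56.5% (48.4 to 64.2%) of its WT members within 100 nt of an edge again and 37.1% (31.9 to 42.5%) of those at 200 nt or more, and for xPore the shares were 17.9% and 7.83%, with overlapping intervals (8.98 to 32.7% and 5.01 to 12.03%). The limit of 200 nt from both edges separated the lists less, with 52.1% of WT, 49.95% of KO and 54.1% (47.1 to 61.0%) of comparison members beyond it, against 58.5% of the background. In the weighted background of the comparison lists 48.1% of positions lay beyond the limit, a value that the interval of their share included. For WT and KO the weighted background was 53.3% and 53.1%. Of the xPore WT members, 59.7% (54.8 to 64.5%) lay beyond the limit, against a weighted 49.8%.

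The 5 comparison members within 50 nt of an edge were named after their values were seen. Fbxo5, an inhibitor of the anaphase-promoting complex, had a GGACT 9 nt from the downstream edge of exon 2, the same site printed above, listed by 9 tools and by 0 in KO. In Senp3, a SUMO protease, an AGACT 20 nt from the upstream edge and a GGACT 40 nt from the downstream edge of exon 2 were each listed by 9 tools, and also by 4 and 2 tools in KO. Msh6 had a GGACT 35 nt from the downstream edge of exon 4 with 5 tools and 1 in KO, and Nodal, a ligand of the TGF-beta family, a GGACT 26 nt from the upstream edge of exon 2 with 2 tools and 1 in KO.

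Support by several tools was more common in long than in short internal exons. Of the 6276 members in a WT or comparison list, 183 (2.92%, 2.53 to 3.36%) were listed by at least 6 tools, against 1.08% of all coding positions in these lists. In short internal exons it was 0.102% (48 of 46923) and in last exons 3.39% (3.11 to 3.71%). In no KO list were 55.2% (53.9 to 56.4%) of the 6276 members, against 38.4% of all coding positions, 34.9% in short internal and 41.7% in last exons. Support and absence from KO did not go together, however: 68.3% (61.2 to 74.6%) of the 183 best supported members were also in the KO list of some tool, against 39.9% (38.3 to 41.5%) of the 3753 members with 1 tool. Within 50 nt of an edge lay 2.73% of the 183 and 11.6% of the 3753. The comparison lists share the WT and KO reads with the other lists, and 193 of their 194 members were in a WT list and 127 in a KO list.

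All 10 tools listed 6 members, and 2 of these, in Ythdf1 and Klf4, were in no KO list. Ythdf1, a reader protein that binds m6A, had its GGACA at 180910937 on chromosome 2, in exon 5 of 6 (1521 nt), 250 nt from the downstream edge. Klf4, a transcription factor of the pluripotency network, had its GGACC at 55530493 on chromosome 4, near the middle of exon 3 of 5 (985 nt), 490 nt from one edge and 494 nt from the other. That exon held 11 members, of which 5 were in a KO list. The other 4 are printed here because they combined full support with KO calls.
Mrpl44, chr1:79778030-79778050, plus strand: aatcttaaGGACAatcaggaa
Degs1, chr1:182279597-182279617, minus strand: aaagatttGGACTggaaatgg
Cand1, chr10:119211792-119211812, minus strand: cctgtatgGGACAgattattt
Actg1, chr11:120347242-120347262, minus strand: attgtcatGGACTctggtgac

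Tombo alone listed the sites of Mrpl44, a protein of the mitochondrial ribosome, and Cand1, an exchange factor of cullin ligases, in KO. Nanom6A and m6Anet listed that of Degs1, which makes ceramide, and 3 tools that of Actg1, a cytoplasmic actin. Actg1 has a near-identical paralogue, Actb, and how reads were split between them is not stated with the lists.

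The other sites printed first, with no KO call, had 9 tools each, and MINES was the tool that did not list them. Asnsd1 had an AGACA at 53347662 on chromosome 1, in exon 4 of 6 (1544 nt), 647 nt from the downstream edge, within exons of 2 genes. Nid2, a basement membrane protein, had a GGACC at 19768608 on chromosome 14, in exon 4 of 21 (728 nt), 329 nt from the downstream edge and 3634 nt from the transcript end. Cdca5, which is needed for sister chromatid cohesion, had a GGACT at 6090418 on chromosome 19, in exon 5 of 6 (474 nt), 106 nt from the downstream edge. All 3 lay nearer to the downstream than to the upstream edge of their exon.

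The sites called most often in both libraries differed in their support by comparison. Senp3 had a GGACC at 69680818 on chromosome 11, 32 nt from the upstream edge of exon 2 of 11 (708 nt), listed in WT and in KO by the same 6 tools and in 0 comparison lists. It lies in the same exon as the pair of Senp3 sites named above, which were in all 3 comparison lists. Phf23, a PHD finger protein, had a GGACC at 69998705 on chromosome 11, listed by 8 tools including Nanocompore, and by 4 tools in KO. The sites in Fn1 (fibronectin), Fbxl5 (an iron-sensing F-box protein) and Dhx15 (an RNA helicase of the spliceosome) were each in 0 comparison lists. The same 4 tools, Tombo, MINES, Nanom6A and m6Anet, listed all 3 in both libraries, and in WT 4 tools listed the site in Fn1, 6 that in Fbxl5 and 5 that in Dhx15. A site in Fbxo38, an F-box protein, was tied with them at 4 tools in both libraries and came last by genomic order. It had a GGACA motif, was listed by 7 tools in WT and was in 0 comparison lists. The motif of all 6 began with GGAC.

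Motif and listing varied together in long internal exons. GGACT was listed in WT at 383 per 1000 of its background positions and in KO at 187, a KO to WT ratio of 0.488 (interval 0.435 to 0.547). The ratio was 0.473 for GGACC and, likewise low, 0.498 for AGACT. Higher values were found for GGACA, with 309 per 1000 in WT and a ratio of 0.783, and for AGACA, with 231 per 1000 and a ratio of 0.965 (0.876 to 1.06). For the motifs with AA before AC the WT density was lowest, from 85.0 per 1000 for AAACA to 107 for AAACT, with ratios between 0.855 and 0.991 whose intervals included 1. AGACT and the 3 motifs that begin with GGAC made up 87.6% (82.3 to 91.5%) of comparison members, 52.9% of WT members and 43.4% of KO members, against 34.3% of the background. In short internal exons they made up 59.8% (54.0 to 65.3%) of comparison sites and 40.1% of WT sites, so the comparison lists were richer in them in long exons. Position within the codon was counted beside the motif. Of the comparison members, 49.5% (42.5 to 56.5%) had the listed A at the second codon position, against 41.4% of the background, and 49.8% of the background once it was weighted to the same motif mix. The share was 43.6% in WT (42.4 to 44.9%) against a weighted background of 45.2%, and 42.6% in KO (41.1 to 44.0%) against 44.8%, both intervals lying below the weighted background.

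Msh6, a mismatch repair protein, held the most comparison members of any gene, 20 of the 194. All 29 of its members lie in exon 4 of 10, which spans chr17:87984446-87986981 on the plus strand and measures 2536 nt, and the exon holds 45 RRACH positions. Of the 29, 28 were in a WT list and 19 in a KO list. In WT, m6Anet listed the most, 23, followed by Tombo with 21, while MINES listed 1 and Nanom6A 0. All 3 comparison tools listed 8 sites, whose sequences are shown because they lie in a single exon and can be compared with each other.
Msh6 site 1, chr17:87984735-87984755: ctcagggtGGACTtagaagga
Msh6 site 2, chr17:87984888-87984908: acagtagtGGACCcactgttt
Msh6 site 3, chr17:87985450-87985470: ggaggaagAGACTtctggtca
Msh6 site 4, chr17:87985490-87985510: tgctttgtGGACActtcactg
Msh6 site 5, chr17:87986068-87986088: tactgaagGGACCctgctaga
Msh6 site 6, chr17:87986574-87986594: ggaagaccGGACTcatcactc
Msh6 site 7, chr17:87986891-87986911: tccttaaaGGACTgcatgcgg
Msh6 site 8, chr17:87986936-87986956: aaccacaaGGACTggcagtct

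These 8 sites lay from 299 to 2500 nt along the Msh6 exon. Sites 1, 4 and 5 were in no KO list and had 8 tools each. Sites 2 and 7 were listed in KO by m6Anet and site 3 by Tombo, with 8 tools each in WT or the comparison. Site 6 had 7 tools and a KO call by Tombo, and site 8, 35 nt from the exon's end, had 5 tools and a KO call by m6Anet. The motif of 7 of these sites began with GGAC, and that of site 3 was AGACT. In the rest of the coding sequence of Msh6, WT lists held 8 positions and KO lists 7. Without Msh6 the comparison ratio of long to short internal exons was 3.36 (2.77 to 4.08), and the share of comparison members at least 200 nt from both edges was 51.1%.

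**Figure D5:**
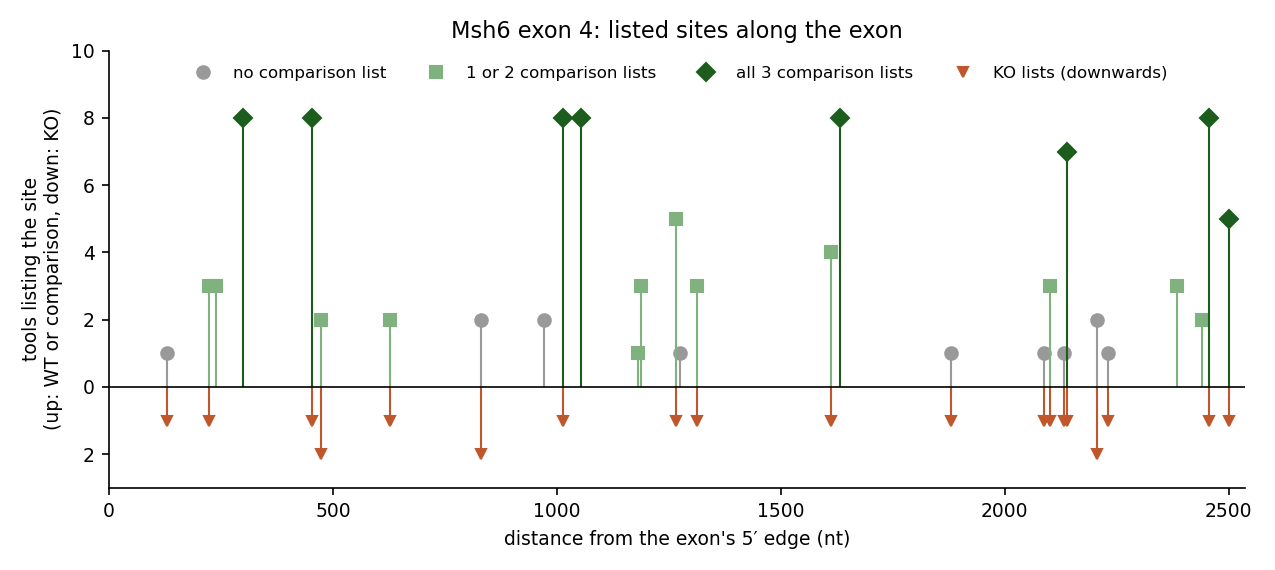
Sites along exon 4 of Msh6 (x axis, distance in nt from the exon's 5′ edge), with the number of tools that listed each in WT or the comparison upwards and in KO downwards (y axis, tools). Marker shape gives the number of comparison lists. The 8 sites in all 3 comparison lists reach 5 to 8 tools and are spread from 299 to 2500 nt, while no site has more than 2 KO lists.

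Comparison members lay in 88 of the 1219 genes with members. Of these 88, 47 held 1 and 24 held at least 3, and the 10 genes with the most held 69 (35.6%). Picked likewise by their own count, the 10 genes with the most WT or comparison members held 371 of 6276. The lists give no coverage, and its part in which genes held comparison members was not tested. After Msh6 came Usp10, a deubiquitinase, with 7 in an exon of 1029 nt that had 17 WT and 14 KO members. Ahctf1, which helps to build nuclear pores, Cand1 and Phax, an adaptor for the export of small nuclear RNA, held 6 each. Cdca5, Fbxo5, Nodal and Ythdf1 held 5 each, and Degs1 4. In Cdca5 these 5 were among the 6 members of an exon of 474 nt with 10 RRACH positions. Phax had more KO than WT members (13 against 12), Degs1 likewise (9 against 8), and the other 8 genes more WT than KO members.

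By total number, genes with very long exons led. Mki67, the proliferation marker Ki-67, held 83 members in 3 exons, 73 of them in exon 12 of 14, the longest exon with members (6836 nt, chr7:135694232-135701067), with 66 in WT, 46 in KO and 1 in a comparison list. Akap12, an anchor of protein kinase A, held 61 in 1 exon of 4798 nt, with 52 in WT and 39 in KO. Cenpf, a kinetochore protein, held 39, and Rif1, Srrm2 and Zfp106 held 36 each. Rif1, which acts in replication timing and DNA repair, had 34 WT and 27 KO members, and Srrm2, a protein of nuclear speckles, 31 and 14. Srrm2 members began 1173 nt into an exon of 6569 nt and ended at 6270 nt. Zfp646 held 33 members, all in WT and 8 also in KO. Apart from Msh6 and Ahctf1, the 10 genes with the most WT or comparison members held 1 comparison member, that of Mki67.

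Tools divided unequally over these exons. In the exon of Zfp646 (5349 nt), Tombo listed 21 WT sites, Epinano 19 and MINES 7, and the other 4 tools 0. In Srrm2, Tombo listed 24, Epinano 11 and MINES 3, and the other 4 likewise 0. Rif1 differed, with 20 sites each from Tombo and m6Anet and 5 each from ELIGOS and Epinano. The exon of Usp10, with 19 RRACH positions and 17 WT members, was listed by all 7, with 11 sites each from Tombo and m6Anet, 10 from Nanom6A, 9 from Epinano, 8 from ELIGOS, 6 from xPore and 2 from MINES. In KO, Tombo listed 7 sites there, m6Anet 6, Nanom6A 3, xPore 2, MINES 1 and ELIGOS and Epinano 0. In the exon of Phax, the KO members came mainly from Nanom6A, which listed 10 in KO and 7 in WT, and in Degs1 it listed 9 in KO and 5 in WT, while Epinano listed 5 and 3 in WT and 0 in KO.

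WT members outnumbered KO members in most genes with at least 10 members, with exceptions. Of 231 genes with at least 10 members, 181 had more in WT, 33 more in KO and 17 as many in each. In the rest of the coding sequence of the same 231 genes, 114 had more WT positions, 79 more KO positions and 38 as many. Bptf, a chromatin remodelling protein, went the other way with 9 WT and 26 KO members, and 6 and 12 positions in the rest of its coding sequence. Sh3bp4 had 21 and 26. Tro, a trophinin gene on chromosome X, had 22 WT and 0 KO members, and no position elsewhere in the gene in either library, so reads of Tro in KO cannot be shown from the lists. Tro was chosen after its values were seen.

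Gene groups were counted against the whole class, where WT lists held 187 and KO lists 132 members per 1000 RRACH positions, a ratio of 0.706 (interval 0.679 to 0.733). Comparison lists held 5.79 per 1000, and of 1754 genes with a long internal exon in a transcript with listed positions, 1219 held members. Of 30 pluripotency genes, 13 had such an exon and 11 of these held members, with 135 in WT and 97 in KO (0.719, 0.548 to 0.940), which is 358 and 257 per 1000, and 5 in comparison lists (13.3 per 1000). Rif1 led with 36 members, followed by Tet1, which oxidises methylated cytosine, with 31, Sall1 with 21 and Jarid2, a partner of Polycomb repressive complex, with 12. Of 32 genes of DNA repair and replication, 20 had such an exon and 15 held members, with 162 in WT and 118 in KO (0.728, 0.570 to 0.929). Msh6 gave 20 of their 21 comparison members (23.4 per 1000). Brca1 had 23 WT and 10 KO members, and Ticrr, which acts at the start of replication, 16 and 14.

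Of 81 chromatin regulators, 56 had such an exon and 39 held members, with 273 members in WT and 227 in KO (0.832, 0.694 to 0.995) and 2 in comparison lists (1.06 per 1000). Setd2, a histone H3 methyltransferase, had 18 WT and 21 KO members, and Arid2, a subunit of a SWI/SNF complex, 24 and 10. Of 37 genes of mitosis and centrosome, 22 had such an exon and 16 held members, with 213 in WT, 135 in KO (0.634, 0.507 to 0.790) and 6 in comparison lists (5.50 per 1000). Among them were Sgo2a, which protects centromeric cohesion, with 24 and 19, and Cep192, a centrosome protein, with 16 and 7. Of 291 Zfp and related zinc finger genes, 68 had such an exon and 41 held members, with 204 in WT and 144 in KO (0.706, 0.566 to 0.878) and 1 in a comparison list (0.663 per 1000). Zfp106 had 32 and 18 and Zfp638 10 and 12. The KO to WT intervals of all 5 groups included the ratio of the whole class, and nothing particular to a group was read from them.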

How the data were processed

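The authors extracted poly(A) RNA from WT and Mettl3 KO cells, sequenced it by ONT DRS, basecalled the reads, aligned them to a GENCODE mouse transcriptome and ran each tool. The deposited files hold no measurement on a scale: the authors' lists give positions, strands and transcripts or genes, with no score, and the cut-off behind each list is not stated with it. The submitters' processing notes name the build mm10. Positions were placed here on GENCODE M21 of the same build (GRCm38), on the transcript with the longest coding sequence, and 16348 of 16356 listed transcript identifiers were found. Of all positions, 97.1% lay on such a transcript. Positions count once for each strand. The background was every RRACH position of the spliced transcripts with a listed position, whether or not reads covered it.

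Shares have Wilson intervals, differences of shares Newcombe intervals, densities Poisson intervals, and ratios exact binomial intervals, all at 95%. Sites of 1 gene or exon share reads and are not independent, so these intervals are narrower than the true uncertainty. No p-value was computed. The members and the gene lists were chosen with earlier results of these data known. Named sites were the 6 with the most tools and no KO list, and the 5 with the most tools in both libraries, with ties broken by the number of comparison lists and then by genomic order. Named genes were the 10 with the most WT or comparison members, the 10 with the most comparison members, and up to 4 per gene list; named exons were the 5 with the most members and the longest. Placement and intervals were tested on simulated data. Alternatives covered exon length, transcript choice, motif, counting rule, tools, edge limit, distance to the transcript end and matching of WT to KO. Python 3.11.15 was used with numpy 2.4.6, pandas 2.3.3, scipy 1.17.1, pysam 0.24.0 and matplotlib 3.10.9. Read-level data and NGS-based sets were not used here.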

Additional observations from a re-analysis of the deposited data

How the results depend on the processing

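Of 182 recomputed values, 106 stayed within the interval of the value reported (for the number of members, within 1.5 times), and the cause of the others was not tested unless the setting itself gives it. All 35 recomputed KO to WT ratios stayed below 1 and all 14 recomputed differences in the share listed again stayed negative. The number of members moved most when each line of the lists was counted, to 18045. The share of coding positions in long internal exons became 6.38% in WT, 5.06% in KO and 12.03% in the comparison lists with a minimum of 600 nt, and 10.7% in WT and 8.94% in KO with 300 nt. Requiring a long internal exon on every coding transcript gave 7.97% and 6.41%, counting lines 10.1% and 6.88%, and leaving out Tombo 9.44% and 6.08%, in WT and KO in each case.

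The share at least 200 nt from both edges became 64.8% in WT, 63.4% in KO and 66.7% in the comparison lists with a minimum of 600 nt, and 43.0% in WT and 40.1% in KO with 300 nt. It was 53.8% in WT without Tombo, and with a limit of 100 nt from both edges it was 78.6%, 75.7% and 83.5%.

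The density ratio of long to short internal exons reversed for the WT lists at 1000 to 2000 nt from the transcript end (1.02, with an interval of 0.970 to 1.07 that includes 1) and on transcripts with a long internal exon (1.28), the latter chosen after seeing the data. In WT it was 0.672 with 600 nt, 0.758 with 300 nt, 0.828 without Tombo, 0.656 in exons with a listed position, and 0.869, 0.929 and 0.761 at under 1000, 2000 to 4000 and 4000 or more nt from the end. In KO it was 0.512, 0.603, 0.481 and 0.508 in the same 4 settings, and 0.689, 0.839 and 0.697 at under 1000, 1000 to 2000 and 2000 to 4000 nt, and 0.930 on transcripts with a long internal exon. In the comparison lists it was 3.09 with 600 nt, 8.94, 7.79 and 5.70 at 1000 to 2000, 2000 to 4000 and 4000 or more nt, and 20.4 on transcripts with a long internal exon. With the 4 motifs that MINES can call, AGACT and the 3 that begin with GGAC, also chosen after seeing the data, it was 0.972 in WT, 0.628 in KO and 5.48 in the comparison lists.

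With these 4 motifs the KO to WT ratio was 0.599 for Tombo, 0.444 for Nanom6A, 0.343 for m6Anet, 0.0702 for ELIGOS, 0.127 for Epinano and 0.174 for xPore. The share of WT members listed again was 38.9% for Tombo, 31.1% for Nanom6A, 16.4% for m6Anet, 2.68% for ELIGOS, 6.74% for Epinano and 3.90% for xPore. Matched to the KO list of any tool, the share was 53.0% for Tombo, 58.2% for MINES, 69.5% for Nanom6A, 54.5% for m6Anet, 60.7% for ELIGOS, 35.3% for Epinano and 55.3% for xPore. With 600 nt it was 45.3% for Tombo, and with 300 nt 48.8% for Tombo and 49.9% for Nanom6A. The difference in this share between long and short internal exons, in percentage points, was -52.0 for xPore, -23.3 for m6Anet, -19.9 for MINES, -14.6 for Tombo and -8.05 for Epinano on transcripts with a long internal exon, and -26.7 for Tombo, -37.3 for Nanom6A and -48.4 for xPore with the 4 motifs. The lists give no coverage, so a site that is missing from a list cannot be told from one with too few reads. No paired analysis was possible because each condition had 1 library.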
